A study of Mus musculus with 28 samples.

Results

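The nuclear-encoded genes of the respiratory chain and of ATP synthase were followed through single-cell RNA-seq of the mouse brain. Members were chosen by their gene symbols alone (the families Nduf, Sdh, Uqcr, Cox4 to Cox8 and Atp5), and 84 of the 23453 genes in the exonic count table matched. By name, 37 belong to complex I, 4 to complex II, 8 to complex III, 18 to complex IV and 17 to complex V. The sample labels describe 28 single cells from mouse cortex. Of these, 12 neurons and 8 astrocytes were harvested by pipette from primary culture (genotype C57/BL6), and 8 interneurons were harvested by patch-clamp pipette from acute slice (genotype C57/BL6/N). No treatment is given for any of these groups. The protocol text of the labels gives a perfused male of 3 months for the cultured cells, the methods of the study describe cultures from embryos, and no age was found for the interneurons. No animal or culture is named for a cell, so cells may share one.

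The respiratory chain passes electrons from NADH and succinate to oxygen and pumps protons across the inner mitochondrial membrane, and ATP synthase spends that gradient to make ATP. Complex I (Nduf genes) takes electrons from NADH, complex II (Sdh genes) is also an enzyme of the tricarboxylic acid cycle, complex III (Uqcr genes) passes electrons to cytochrome c, complex IV (Cox genes) reduces oxygen, and complex V (Atp5 genes) is the ATP synthase. Brain tissue depends on this pathway for most of the ATP that ion pumping and synaptic transmission consume. Several subunits of complex IV and V exist as isoforms from separate genes, some of them best known from muscle, lung or testis.

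The columns of the count tables carry the codes BRP or F and a number. None of these 28 codes occurs in the labels, so 0 columns were matched to a sample and no cell type was assigned to a column. The cells are therefore described as 1 set, and by 3 runs of codes in the table header: 12 lower BRP codes (BRP528 to BRP543), 8 higher BRP codes (BRP564 to BRP572) and 8 F codes. No test between runs was made, and no SD or p-value is given. Exonic counts per column were 17483754 to 26770944 in the lower BRP run, 12969692 to 19798892 in the higher BRP run and 838343 to 14831505 in the F run, where 2338 to 7218 genes were detected per column against 9869 to 12815 in the BRP runs. Of 7 neuronal markers, 7 had a median of at least 10 CPM (the gene's counts divided by the exonic total of the column, times 1e+06) in the lower BRP run, 2 in the higher BRP run (Snap25, Rbfox3 and Nefl at a median of 0) and 4 in the F run. Of 9 astrocyte markers the counts were 2, 9 and 0, with Gfap, Aqp4, Slc1a3, Aldh1l1 and S100b at a median of 0 in the F run. All 3 GABAergic markers passed this level in the F run, 1 (Gad2) in the lower and 0 in the higher BRP run. All 3 glutamatergic markers (Slc17a6, Slc17a7 and Neurod6) passed it in the lower BRP run and had a median of 0 in the higher BRP and F runs. The summed astrocyte markers ranged from 208 to 2463 CPM in the lower BRP, from 2674 to 7155 CPM in the higher BRP and from 1.19 to 4363 CPM in the F run. The neuronal ones ranged from 4898 to 9982 CPM, from 299 to 801 CPM and from 1608 to 17800 CPM in the same order. Of the highest astrocyte sum in the F run, that of F7, Slc1a2 made up 4350 CPM. Slc1a2 alone of the astrocyte markers had a higher median in the lower (804 CPM) than in the higher BRP run (192 CPM). The part of cell type, library kit or culture in the results below was not tested.

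Columns F11 and F12 stood apart from the other F columns by their likeness to each other. Over 11732 genes with at least 1000 counts summed over all columns, their log2(CPM + 1) values had a Pearson r of 0.956, against at most 0.409 for any other pair of F columns and 0.844 for the next pair of all columns. Their counts still differed by more than sampling noise (chi-square per degree of freedom 17.6). Of 756 genes with over 50 counts in F12, 0 were at 0 in F11, and of 821 such genes in F11, 14 were at 0 in F12. For the F run, the share of members, the part of complex IV, the concentration in 1 column, the counts past 2-fold by medians and the ratio to ribosomal protein counts are also given with both counted as 1 by their mean. The other F values include both columns.

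Members took up 17369167 of 442129542 exonic counts, which is 3.93%, although they are 0.358% of the genes. In the lower BRP run the share per column was 3.41% at the lowest, 4.39% at the median and 6.35% at the highest. In the higher BRP run these values were 2.72%, 3.23% and 3.87%. In the F run they were 0.181%, 1.96% and 4.95%, and the median was also 1.96% with F11 and F12 counted as 1. The order of the runs depended on the scaling of the member counts. With TMM effective library sizes (edgeR) in place of total counts the median was 4.54% in the F run. It was 3.25% in the lower and 2.20% in the higher BRP run. With DESeq2 size factors, rescaled to the size of the totals, it was 13.6%, above 4.84% and 2.81%. These are scaled values and not shares, since a share of a column's own counts does not change with its scaling. The TMM factors of the alike columns F11 and F12 were 0.0802 and 0.452. The highest share of all was in BRP528, and 10 of the 12 lower BRP columns lay above every higher BRP column, the exceptions being BRP529 and BRP540. BRP528 also had the highest summed GABAergic markers of the lower BRP run, 2714 CPM, and BRP529 the lowest summed neuronal markers, 4898 CPM. BRP528 had the highest summed oligodendrocyte markers of all columns too, 660 CPM, against at most 149 CPM in the rest of its run. Its summed glutamatergic markers were the lowest of its run, 0.0498 CPM. The part of these markers in the result was not tested. Of the 8 F columns, 5 lay below every BRP column, namely F11 (1.98%), F12 (1.94%), F7 (1.49%), F16 (0.644%) and F24 (0.181%), while F6 (4.95%), F1 (4.12%) and F2 (2.97%) lay within the range of the BRP columns. The shares are relative to each column's own counts and say nothing of the RNA per cell.

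**Figure D1:**
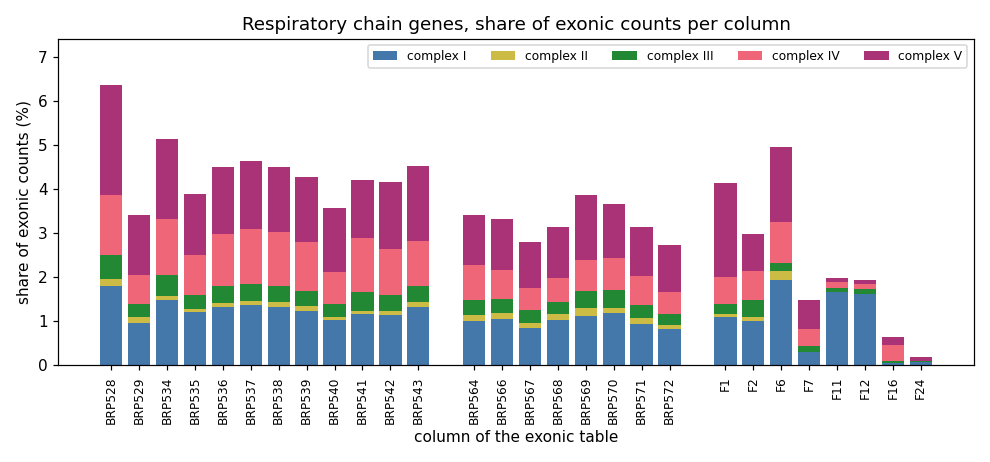
Stacked bars give the share of exonic counts (%, vertical axis) of members of complexes I to V in each of the 28 columns (horizontal axis), with the lower BRP run at the left, the higher BRP run in the middle and the F run at the right. The lower BRP columns reach from 3.41% to 6.35% and the higher BRP columns from 2.72% to 3.87%, while F11 and F12 consist mostly of complex I and F24 has 0.181%.

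Complex V held 36.0% of all member counts, complex I 30.1%, complex IV 22.5%, complex III 8.63% and complex II 2.74%. Within BRP columns the parts of complexes I and V were alike in both runs. Complex I made up from 27.3% to 31.2% of member counts in the lower and from 28.8% to 32.7% in the higher BRP run. Complex V made up from 31.3% to 40.4% and from 33.2% to 38.6%. The F columns ranged more widely, from 9.94% to 84.2% for complex I and from 4.64% to 51.4% for complex V. Complex IV made up from 19.4% to 29.4% (median 24.7%) in the lower and from 17.4% to 23.3% (median 19.3%) in the higher BRP run, and from 5.29% to 55.1% (median 16.9%, or 19.1% with F11 and F12 counted as 1) in the F run.

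Detection showed the same contrast. In BRP columns 74 to 78 of the 84 members had at least 1 count, and 74 members were detected in all 20 BRP columns. In F columns 18 (F24) to 75 (F1) members were detected, and Atp5b, the catalytic beta subunit of ATP synthase, was the only member with counts in all 28 columns. After each column was thinned to 800000 counts, 73 to 77 members were still detected in BRP columns and 14 to 73 in F columns. At least 13 and at most 16 members made up 50% of a BRP column's member counts, whereas in F columns 1 to 8 did.

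Levels between genes were compared per length, as the median over 28 columns of CPM per kb of annotated exon. The highest level was that of Atp5g3, 4260 CPM per kb, which codes for the c subunit of the rotating ring of ATP synthase. Atp5k (2255 CPM per kb, the small membrane subunit e) and Atp5b (1218 CPM per kb) followed within complex V. In complex I the small accessory subunits Ndufa1 (1917 CPM per kb), Ndufb6 (1062 CPM per kb) and Ndufb10 (793 CPM per kb) led. In complex IV, Cox7c (1322 CPM per kb), Cox6a1 (1244 CPM per kb) and Cox5a (1066 CPM per kb) led, all of them nuclear subunits around the mitochondrially encoded catalytic core. In complex III these were Uqcrb (1119 CPM per kb), Uqcrh (892 CPM per kb) and Uqcr10 (738 CPM per kb). Complex II was low throughout, with Sdhb (132 CPM per kb, the iron-sulfur subunit), Sdha (119 CPM per kb, the flavoprotein) and Sdhc (106 CPM per kb, a membrane anchor) close together and Sdhd, the other anchor, at 59.2 CPM per kb.

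The catalytic core of complex I lay below its accessory subunits on this scale. The 7 core subunits, which carry the flavin, the iron-sulfur clusters and the quinone site, had a median of 59.4 CPM per kb, with Ndufs1 the lowest at 24.9 CPM per kb, whereas the other 30 complex I members had a median of 259 CPM per kb. Without division by length the medians were 76.7 and 244 CPM. The same order was seen within the lower BRP run (75.6 against 331 CPM per kb) and the higher BRP run (52.4 against 254 CPM per kb). The core genes are longer, with a median of 1.62 kb of exon against 0.868 kb. Across the 80 members with counts and a length, Spearman's rho between length and CPM per kb was -0.40, and between length and CPM it was -0.07. In complex III, Uqcrc1, a core protein without a redox centre, was also low (19.6 CPM per kb) beside Uqcrc2 (184 CPM per kb), its partner, and Uqcrfs1 (341 CPM per kb), the Rieske iron-sulfur protein.

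**Figure D2:**
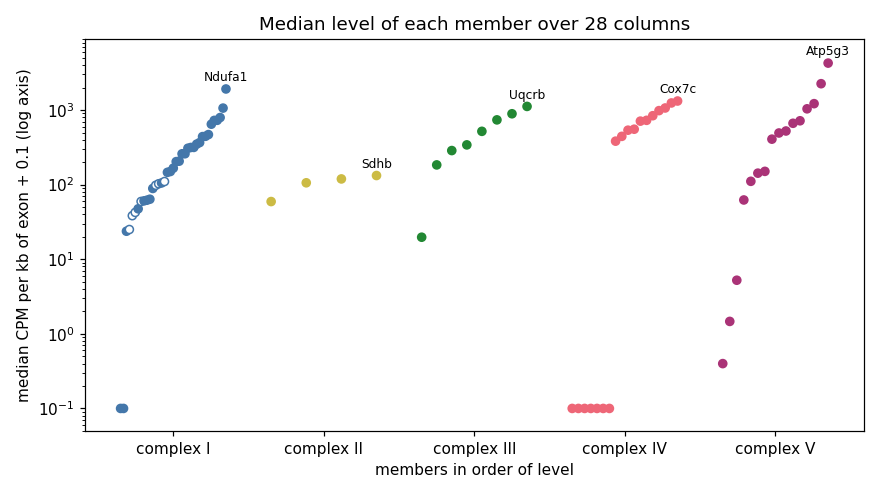
Each point is 1 member, placed by complex and in order of level (horizontal axis), and the vertical log axis gives its median CPM per kb of exon over 28 columns plus 0.1. Open circles mark the 7 core subunits of complex I, whose median is 59.4 CPM per kb against 259 CPM per kb for the other members of complex I, and the row of points at the bottom holds members with a median of 0, of which complex IV has 7.

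Members varied less between BRP columns than other genes did. Among genes with a median of at least 10 CPM and counts in every column of the run, the highest column of the lower BRP run exceeded the lowest by a median factor of 3.45 over 72 members and of 17.3 over 5644 genes. In the higher BRP run these factors were 2.45 over 73 members and 7.04 over 7005 genes. Members lie among the more abundant genes, and no match on level was made. In the F run most members took much of their level from 1 column. Of 78 members with F counts, 53 (67.9%) took over 50% of their summed CPM from a single column, against 85.8% of 5210 genes with a median of at least 10 CPM over all columns. The median part of that column was 64.2% over the members and 80.5% over those genes. With F11 and F12 counted as 1, 60 members took over 50% from a single column, and the median part was 65.5%. The lowest part was that of Uqcr10, 23.9%.

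**Figure D3:**
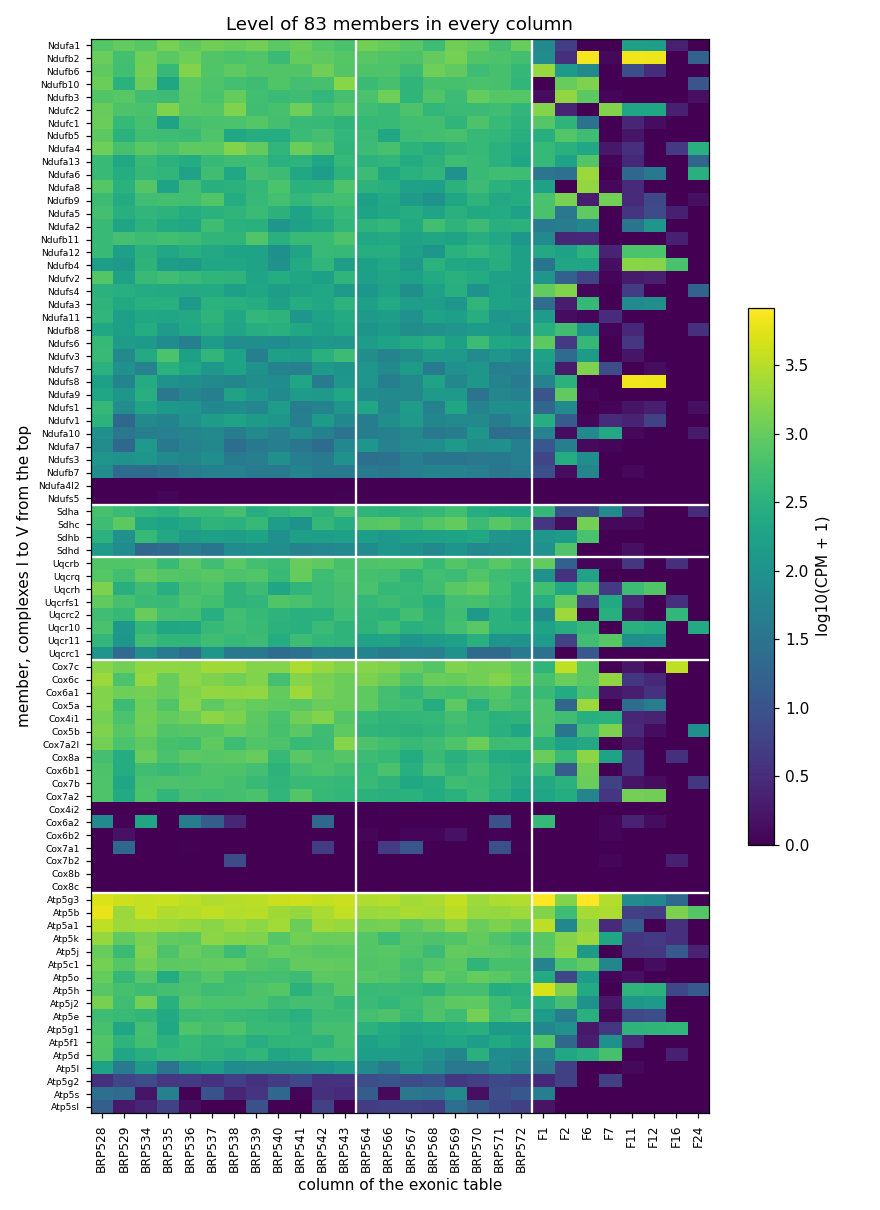
The colour gives log10(CPM + 1) of 83 of the 84 members (vertical axis, complexes I to V from the top, ordered by median level within a complex) in each of the 28 columns (horizontal axis). White lines separate the complexes and the 3 runs of codes, and the BRP columns are evenly filled (74 to 78 members detected) while the F columns are patchy (18 to 75 members detected).

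Between the 2 runs of BRP codes, members were mostly lower in the higher run, and complex IV more than the others. A member was compared where its median reached 10 CPM in at least 1 of both runs, and the ratio was taken as log2 of (median CPM + 1). Of 73 members compared, 14 were lower in the higher run by 2-fold or more (19.2%), against 22.7% of all 8669 genes compared. Only 2 members were higher by 2-fold or more (2.74%), namely Sdhc and Atp5s, against 36.4% of all genes. The count of lower members was thus near the background, and the count of higher members was below it. The counts lower and higher were 19 and 1 with TMM scaling (edgeR) and 22 and 0 with DESeq2 size factors. No share over all genes was computed under these scalings, so these counts cannot be set beside the background above. Without any 1 of BRP528, BRP534, BRP537 or BRP543, 4 members were higher. The median log2 ratio was -0.42 over the members and 0.35 over all genes.

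By complex, the median log2 ratio of the higher to the lower run was -0.83 in complex IV (11 of 11 compared members below 0), -0.47 in complex V (12 of 15), -0.32 in complex I (25 of 35), -0.21 in complex III (6 of 8) and 0.15 in complex II (2 of 4). The share of exonic counts of complex IV was 0.662%, 1.14% and 1.36% in the lower run (lowest, median, highest) and 0.488%, 0.661% and 0.797% in the higher run, and 10 of 12 lower BRP columns exceeded every higher BRP column. For complex II the shares were 0.068%, 0.099% and 0.158% against 0.097%, 0.131% and 0.179%, and the ranges overlapped. With TMM or DESeq2 scaling in place of total counts, the median of all genes moved from 0.35 to 0.11 and -0.06. Relative to all genes, members then differed by -0.67 and -0.71, against -0.77 with total counts, so the direction for members as a whole was kept under each scaling. Complex IV had all 11 members below 0 under each scaling (medians -1.03 and -1.20), whereas the median of complex II turned to -0.05 and -0.25.

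Cox4i1, Cox5b, Cox6a1, Atp5f1 and Ndufb11 were lower in every higher BRP column than in any lower BRP column. These are 5 of 73 members (6.85%), against 4.54% of all genes, and 0 members lay wholly higher, against 5.56%. The share of members wholly lower was thus near the background, and no match on level was made. The values below describe these genes only. Cox4i1, the largest nuclear subunit of complex IV and the site of its regulation by ATP, ranged from 621 to 1713 CPM (median 1152) in the lower run and from 313 to 568 CPM (median 402) in the higher run. The log2 ratio was -1.52. Cox5b ranged from 505 to 1459 CPM (median 812) and from 210 to 489 CPM (median 358), a log2 ratio of -1.18. Its groups were separated by a narrow gap, between BRP569 and BRP542. Cox6a1, the broadly expressed isoform of subunit VIa, ranged from 961 to 2217 CPM (median 1429) and from 388 to 900 CPM (median 585), a log2 ratio of -1.29. Atp5f1, the b subunit of the stalk that holds ATP synthase's catalytic head still, ranged from 281 to 708 CPM (median 374) and from 153 to 243 CPM (median 180). Ndufb11, an accessory membrane-arm subunit of complex I encoded on the X chromosome, ranged from 308 to 709 CPM (median 470) and from 113 to 276 CPM (median 210).

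**Figure D4:**
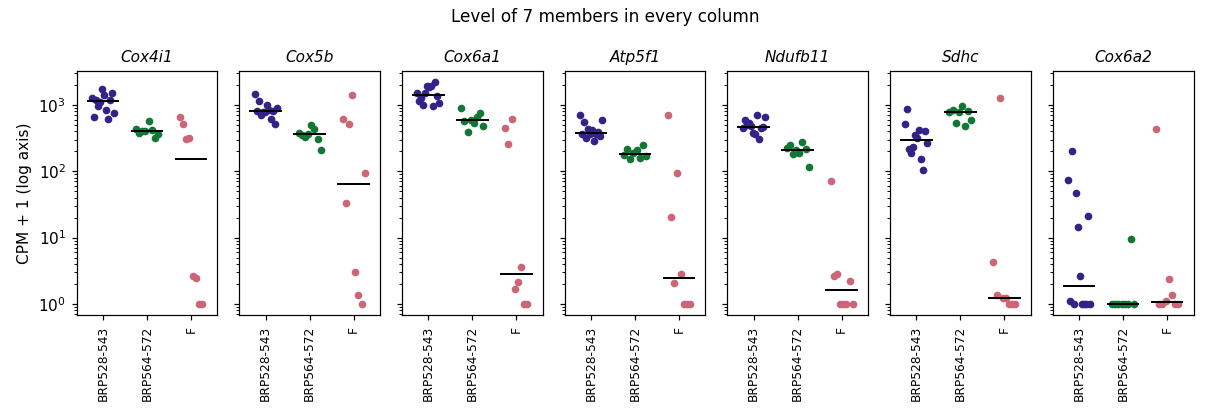
Each point is the level (CPM + 1, log axis) of a member in 1 column, and the bar is the median of the run. The horizontal axis gives the lower BRP, higher BRP and F runs. The first 5 members do not overlap between the BRP runs, Sdhc is higher in most columns of the higher BRP run (medians 777 and 290 CPM), and Cox6a2 is at 0 or nearly so outside a few columns.

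The other 9 members lower by 2-fold or more were Atp5d, Atp5g1, Cox8a, Ndufa4, Ndufb8, Ndufb9, Ndufs3, Ndufv3 and Uqcr11. Atp5d, the delta subunit of the central stalk of ATP synthase, had the lowest ratio of the members compared (log2 ratio -1.57, median 372 CPM in the lower and 124 CPM in the higher run). Ndufv3, an accessory subunit beside the NADH site, followed Cox4i1 with medians of 216 and 85.3 CPM, but its lower run alone spanned from 47.8 to 643 CPM. Ndufa4, counted here in complex I by its name but known today as a subunit of complex IV, had medians of 851 and 354 CPM. Ndufs3 was the only core subunit of complex I past 2-fold, with medians of 79.1 and 33.8 CPM.

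Sdhc was the exception among abundant members. It ranged from 103 to 858 CPM (median 290) in the lower run and from 478 to 953 CPM (median 777) in the higher run, a log2 ratio of 1.42, which was 1.22 with TMM and 0.92, below 2-fold, with DESeq2 size factors. BRP528 and BRP529 of the lower run, at 508 and 858 CPM, lay within the range of the higher run. Sdhc made up a median of 27.1% of complex II counts in the lower and 55.2% in the higher run. Without it, the share of complex II was 0.0654% and 0.0590% at the median, so that the higher level of complex II rested on Sdhc. Sdha (445 and 353 CPM), Sdhb (165 and 158 CPM) and Sdhd (67.8 and 87.4 CPM) differed little in their medians. Ndufa7 and Ndufs6, both accessory subunits of complex I, were the next highest, with log2 ratios of 0.97 and 0.96. Atp5s had few counts (medians of 2.63 and 12.0 CPM), and its levels overlapped widely. It and Atp5sl match the name pattern but are not counted among the standard subunits of ATP synthase.

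**Figure D5:**
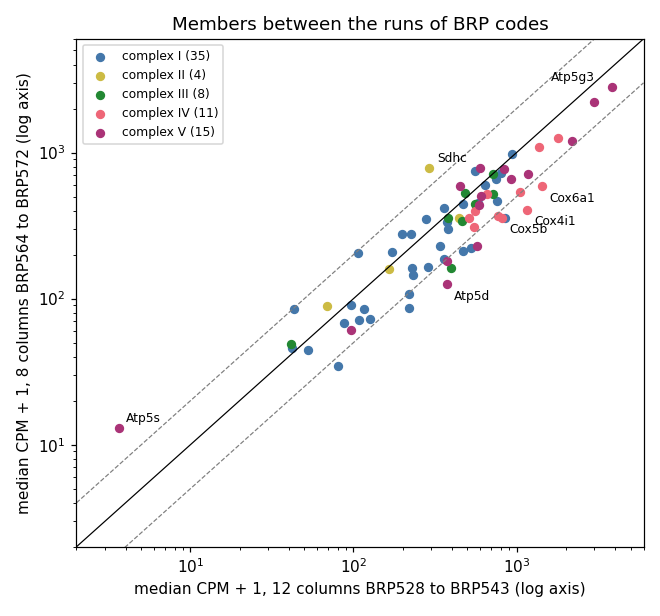
Each point is 1 of the 73 members compared, with its median CPM + 1 in the 12 lower BRP columns (horizontal log axis) and in the 8 higher BRP columns (vertical log axis). The solid line marks equality and the dashed lines a 2-fold difference. All 11 complex IV members lie below the solid line, 14 members lie on or below the lower dashed line, and Sdhc and Atp5s lie above the upper one.

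Promoter sequence was looked at for the members without overlap between the BRP runs. It was also searched for the motif of NRF1, a transcription factor known for its binding sites in respiratory chain promoters. Whether these members vary together between columns was not tested. RefSeq windows of 250 bases before the start (GRCm38.p6) were available by symbol for 66 of 84 members, in 71 windows. The NRF1-type core CGCATGCG, which reads the same on both strands, was in 7 of 71 windows (9.86%). It was in 1.55% of all 32851 windows and in 3.30% of 8444 windows of genes with a mean of at least 10 CPM. The ETS-type core CCGGAAGT or its complement was in 4.23% of member windows, 2.88% of all windows and 5.78% of those of expressed genes. CCAAT or its complement was in 42.3%, 33.8% and 34.9%, AAGATGG (the YY1-type core) in 1.41%, 4.49% and 4.42%, and TATAAA in 9.86%, 12.4% and 6.35%, each on both strands. GC content was 56.0% at the median in member windows, 52.4% in all and 60.8% in those of expressed genes. These matches are a description of the letters only.

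The 7 members with the NRF1-type core were Atp5g2, Atp5j, Atp5k, Atp5l, Cox6a1, Ndufa11 and Ndufa8. Their stretches around it are shown because this was the motif whose share in members differed most, as a ratio, from that in all promoters. They are read 5′ to 3′ along the gene, with the core in capitals.
Atp5g2 (chr15:102671065-102671104, minus strand): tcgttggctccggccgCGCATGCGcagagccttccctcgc
Atp5j (chr16:84835100-84835139, minus strand): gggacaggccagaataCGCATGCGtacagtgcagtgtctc
Atp5k (chr5:108434425-108434464, minus strand): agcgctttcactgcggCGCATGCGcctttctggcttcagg
Atp5l (chr9:44920960-44920992, minus strand): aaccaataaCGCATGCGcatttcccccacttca
Cox6a1 (chr5:115349096-115349135, minus strand): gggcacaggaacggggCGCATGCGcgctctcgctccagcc
Ndufa11 (chr17:56717687-56717726, plus strand): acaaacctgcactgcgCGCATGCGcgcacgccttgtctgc
Ndufa8 (chr2:36049339-36049363, minus strand): tgcgcgtcgctggagaCGCATGCGc
The first base of the core lies from 9 (Ndufa8) to 241 (Atp5l) bases before the start. Of these 7, Cox6a1 was also among the 5 members without overlap between the BRP runs.

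Windows were found for 3 of those 5 members, Cox5b, Cox6a1 and Ndufb11, and the whole 250 bases before the start are given for them so that they can be compared. Capitals mark the NRF1-type core and CCAAT or its complement ATTGG.
Cox5b (chr1:36691237-36691486, plus strand): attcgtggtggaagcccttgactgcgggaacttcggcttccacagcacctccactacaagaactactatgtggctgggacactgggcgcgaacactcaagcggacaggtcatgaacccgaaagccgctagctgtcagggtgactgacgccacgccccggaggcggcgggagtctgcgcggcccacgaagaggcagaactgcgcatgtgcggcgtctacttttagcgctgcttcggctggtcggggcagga
Cox6a1 (chr5:115348959-115349208, minus strand): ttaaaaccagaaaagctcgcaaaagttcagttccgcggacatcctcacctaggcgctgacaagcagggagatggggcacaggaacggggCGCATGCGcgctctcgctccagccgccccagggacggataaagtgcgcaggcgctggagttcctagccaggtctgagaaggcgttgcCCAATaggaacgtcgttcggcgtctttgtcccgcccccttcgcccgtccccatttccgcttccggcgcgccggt
Ndufb11 (chrX:20617620-20617869, minus strand): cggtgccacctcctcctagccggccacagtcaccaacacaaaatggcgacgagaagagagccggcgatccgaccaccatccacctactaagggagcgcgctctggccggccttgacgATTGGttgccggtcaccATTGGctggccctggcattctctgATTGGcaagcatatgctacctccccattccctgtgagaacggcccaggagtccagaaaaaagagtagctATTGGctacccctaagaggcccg
The window of Ndufb11 held ATTGG 4 times, that of Cox6a1 held CCAAT 1 time and the NRF1-type core, and that of Cox5b held 0 of either, so no motif searched was in all 3 windows.

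Isoform families were dominated by the broadly expressed gene, with a few exceptions. Of the counts per kb summed over all columns, Cox4i1 took 99.9997% beside Cox4i2, the isoform known from lung and low oxygen, which had 1 count. Cox8a and Ndufa4 took all of theirs, since Cox8b, Cox8c and Ndufa4l2 had 0 counts in the 28 columns. A count of 0 allows up to 0.112 CPM in the deepest and 3.58 CPM in the shallowest column (3 counts, counting error only). Cox6b1 took 99.989% beside Cox6b2, known from testis (28 counts in 7 columns), and Cox7b took 99.8% beside Cox7b2 (162 counts in 3 columns). Cox7a1, the muscle isoform of subunit VIIa, had 919 counts in 7 columns, with at most 20.4 CPM (BRP529), and it took 0.318% of its family. Cox7a2 (52.8%) and Cox7a2l (46.9%), the latter a factor for joining complexes III and IV into supercomplexes, shared that family about evenly. In counts without division by length they took 39.2% and 60.6%.

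Cox6a2, the isoform of subunit VIa known from heart and skeletal muscle, was seen in few columns but at high levels in some of them. It had 14095 counts in 12 columns and 0 intronic counts. Its level was 429 CPM in F1, beside 443 CPM of Cox6a1, and at most 1.37 CPM in any other F column. In the lower BRP run it was 204 CPM in BRP534, 72.7 CPM in BRP528, 45.2 CPM in BRP536, 19.8 CPM in BRP542 and 13.4 CPM in BRP537, and at most 1.66 CPM in the other 7 columns. In the higher BRP run it was 8.51 CPM in BRP571 and 0 in the other 7 columns. As a share of both isoforms per kb it reached 44.9% in F1, 11.9% in BRP534 and 3.84% in BRP528. The 50.2% in F11 rests on levels of 1.37 and 1.14 CPM. The gene lies on chromosome 7 from 128205435 to 128206387 (minus strand, GENCODE M21).

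The c subunit of ATP synthase is encoded by Atp5g1, Atp5g2 and Atp5g3, which differ mainly in the targeting peptide that is removed. Atp5g3 took 98.4% of the counts per kb, Atp5g1 1.47% and Atp5g2 0.120%. The annotated exons of Atp5g1 sum to 4.91 kb, and without division by length it took 9.19%. Atp5g1 ranged from 205 to 696 CPM (median 567) in the lower and from 134 to 328 CPM (median 227) in the higher BRP run, while Atp5g3 ranged from 2807 to 5076 CPM (median 3870) and from 2253 to 3604 CPM (median 2788). In F16, Atp5g1 exceeded Atp5g3 (382 against 20.3 CPM), as it did in F11 and F12 (350 and 365 CPM against 76.8 and 66.1 CPM). Transcripts of 4 other annotated genes match the coding sequence of Atp5g1 at 90% identity or more, so its counts may be shared with them. For Atp5g2 there are 2 such genes, with an identity of up to 100%, and for Atp5g3 there are 0. The low share of Atp5g2 may thus rest in part on how reads were counted, which was not tested.

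Such copies touch many members. Of 83 members with an annotated coding sequence, 30 had at least 1 other annotated gene with a transcript that matched 80% or more of their coding sequence with an identity of 90% or above, among them Atp5l with 14, Cox7c and Atp5h with 5 each, and Uqcrb and Cox7b with 4 each. They held 38.7% of member counts, and how reads were divided among copies is not given in the sources used here. Ndufs5, an accessory subunit of complex I whose copy matches at 99.4%, had only 4 counts in 2 columns. Over the 53 members without a copy, the share of exonic counts was 2.12%, 2.49% and 3.84% in the lower BRP run, 1.72%, 1.97% and 2.39% in the higher BRP run and 0.114%, 0.964% and 2.90% in the F run, in the same order as for all members. Of the 5 members without overlap, Cox4i1 had no copy, Cox5b, Cox6a1, Atp5f1 and Ndufb11 had 1 each, and Sdhc had none.

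The F run was lower for nearly all members by its medians, and so it was for nearly all genes. Against the lower BRP run, 68 of 72 members were lower by 2-fold or more (94.4%, against 95.5% of 6540 genes) and 0 were higher (against 1.47%). Against the higher BRP run, 67 of 73 were lower (91.8%, against 94.7% of 7622 genes) and 0 were higher (against 2.69%). These shares were near the background. With F11 and F12 counted as 1, 69 and 62 members were lower, and no share over all genes was computed for this setting. Relative to the median of all genes, members differed by -0.65 (log2) from the lower BRP run with total counts, but by 0.46 with TMM and 0.89 with DESeq2 size factors, so no direction relative to other genes is given. With means in place of medians, 44 and 35 members were lower, and 3 and 6 were higher, also without a share over all genes beside them. Both F comparisons share the F columns.

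Within the F run, the leading member differed between columns. Atp5g3 was at 8176 CPM in F1, 8341 CPM in F6, 2957 CPM in F7 and 1519 CPM in F2, at 20.3 to 76.8 CPM in F16, F12 and F11, and at 0 in F24. It made up 19.8%, 16.8% and 19.8% of the member counts of F1, F6 and F7. Cox7c made up 55.0% of the 5395 member counts in F16, with 3540 CPM, and stood at 3514 CPM in F2. Atp5b made up 42.5% of the 3839 member counts in F24, with 771 CPM. At least 3 members were needed to reach 50% of the member counts in F7, 6 in F1, 7 in F6 and 8 in F2, so that a single member passed 50% only in F16. F16 also had the highest summed microglia markers of all columns, 2093 CPM. This sum was Csf1r alone, out of 5 markers listed, and its part in these values was not tested.

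F11 and F12 were unlike the rest. Ndufb2 stood at 6938 and 6695 CPM and Ndufs8 at 6922 and 6589 CPM, and these subunits of complex I, the first accessory and the second core, together made up 69.9% and 68.4% of member counts. In BRP columns Ndufb2 ranged from 468 to 1261 CPM and Ndufs8 from 39.2 to 259 CPM. Ndufb2 was also high in F6 (7243 CPM), where Ndufs8 was at 0. Ndufb4 (1668 and 1644 CPM) was the next complex I member in F11 and F12, and 1 other gene holds a copy of its coding sequence at 100% identity. Without Ndufb2 and Ndufs8 the complex I share of F11 and F12 fell from 1.67% and 1.62% to 0.284% and 0.292%. Intronic counts of both genes were few there: Ndufb2 had 62 and 41 intronic beside 30461 and 18123 exonic counts, and Ndufs8 had 0 and 0.

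Member reads were mostly exonic. All 84 members have a row in the intronic table, and 1.02% of their exonic and intronic counts together were intronic, against 19.6% for all genes. Among genes with at least 10000 exonic counts the median was 0.201% over 73 members and 4.03% over 6377 genes. Intron length was not taken into account in these comparisons with all genes. In the lower BRP run the members' intronic percentage per column ran from 0.124% to 2.45%, against 8.91% to 38.8% for all genes. In the higher BRP run it ran from 0.211% to 0.761%, against 5.67% to 13.0%. In the F run it ran from 0.0139% to 33.7%, against 5.31% to 63.0%. The highest values, 33.7% and 31.8%, were in F11 and F12, where Atp5b alone held 93.3% and 92.4% of the members' intronic counts, while its exonic level there was 4.56 and 4.06 CPM. Of 72 members with annotated introns and at least 10000 exonic counts, 7 had 0 intronic counts: Atp5e, Atp5g1, Atp5h, Cox6a2, Ndufb8, Ndufb11 and Uqcrfs1.

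Related genes give the setting between the BRP runs. Of 33 assembly factors and carriers compared, 5 were lower and 5 higher in the higher run by 2-fold or more (15.2% each), with a median log2 ratio of -0.49. Both shares were below those of all genes given above, 22.7% lower and 36.4% higher. The lower ones were Ttc19, a factor for complex III (medians 93.4 and 17.7 CPM), Atpif1, the inhibitor of ATP synthase (461 and 106 CPM), Usmg5, a small subunit of ATP synthase that the name rule does not hold (629 and 243 CPM), Sco2, a copper chaperone (25.6 and 7.22 CPM), and Ndufaf3. The higher ones were Cox10, Cox16, Cox17 and Cox20, all of them assembly factors of complex IV, and the ADP/ATP carrier Slc25a5. Cox17, a copper chaperone, had medians of 85.7 and 276 CPM, and Cox20 of 49.1 and 226 CPM. Of 11 assembly factors of complex IV compared, 7 had a higher median in the higher run (Cox14, Cox15 and Cox18 beside those named) and 4 a lower one (Sco2, Cox11, Cox19 and Surf1), with a median log2 ratio of 0.93, while all 11 complex IV subunits had a lower one. The median log2 ratio of all genes was 0.35. As a share of these 11 factors, the 4 higher by 2-fold or more did not exceed the 36.4% of all genes. Slc25a5 had medians of 1484 and 3477 CPM, whereas Slc25a4, the other carrier isoform, had 3413 and 2350 CPM. With DESeq2 size factors Cox16 and Slc25a5 were at log2 ratios of 0.85 and 0.92, below 2-fold, and all 5 kept their direction.

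Of 16 tricarboxylic acid cycle genes, 0 were lower and 1 was higher by 2-fold or more (6.25%, median log2 ratio -0.32). The latter was Suclg2, the GTP-forming subunit of succinyl-CoA ligase, with medians of 0 and 21.7 CPM, beside 418 and 274 CPM of the ATP-forming Sucla2. Of 14 glycolysis genes, 3 were lower (21.4%) and 2 higher (14.3%), with a median log2 ratio of -0.47. Of 84 cytosolic ribosomal protein genes, 5 were lower (5.95%) and 22 higher (26.2%), with a median of 0.67. Set beside 22.7% lower and 36.4% higher among all genes, each of these shares was below the background. The ratio of member counts to ribosomal protein counts was 0.815, 1.32 and 1.75 in the lower BRP run (lowest, median, highest) and 0.451, 0.580 and 0.665 in the higher run, without overlap. In the F run it was 0.416, 0.729 and 2.41, with a median of 0.887 when F11 and F12 were counted as 1. The ratio of member counts to glycolysis counts did overlap between the BRP runs. It was 12.1, 15.3 and 19.2 in the lower, 8.02, 11.6 and 16.1 in the higher BRP run and 1.09, 6.78 and 20.9 in the F run. Some glycolysis genes added little to these counts. In the lower BRP, higher BRP and F runs, Gapdh had medians of 29.8, 21.8 and 8.29 CPM. Those of Pgam1 were 7.80, 7.78 and 3.81 CPM, and those of Eno1 were 0. Glycolysis genes were not searched for copies, and whether reads of these genes went uncounted was not tested. The size of this ratio is therefore uncertain. Of 6 regulators of mitochondrial biogenesis compared, 0 were lower and 2 higher (33.3%, also below the background), namely Pprc1 and Gabpa (medians of 3.42 and 32.4 CPM), the latter the ETS factor with binding sites in several respiratory chain promoters. Ppargc1a, the coactivator PGC-1alpha, had medians of 53.0 CPM in the lower BRP run, 103 CPM in the higher and 287 CPM in the F run. Its levels overlapped widely, from 4.64 to 373, from 1.82 to 313 and from 0 to 1877 CPM in the same order. Every other listed regulator had a median of 0 in the F run, except Gabpa at 0.0337 CPM.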

How the data were processed

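The deposited values are raw counts, a table exonic and another intronic, and were not normalized by the authors. The submitters' processing notes name bcl2fastq 2.17, STAR 2.4.0 and mm10; the counting tool, annotation and strand setting are not given in the sources used here. The labels describe different library kits and sequencers for cultured cells and interneurons. The 28 columns match no sample label by their codes, so runs of codes are described without a test. Members, runs and gene lists were chosen with earlier results of these data known.

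Counts were divided by each column's exonic total (CPM). Ratios between runs are log2 of medians plus 1, for genes with a median of at least 10 CPM in either run, and 2-fold was the threshold. The calculation was tested on simulated counts with sampling noise only. These lacked the variation between columns seen in the data, so they check the arithmetic and not the reliability of the ratios. Named genes were, by rule, the 3 highest per kb in each complex, isoform families, the 5 highest and lowest ratios per pair of runs, core subunits, members with 10000 exonic and 0 intronic counts, and members in fewer than 10 columns; other members past 2-fold, without overlap, with a motif or high in single F columns, and genes of the related lists, were named after their values were seen. Lengths come from GENCODE M21 (83 of 84 members), copies from BLAST 2.17.0, promoters from RefSeq. Python 3.11.15, pandas 2.3.3, edgeR 4.0.16 and DESeq2 1.42.0 (size factors only) were used. The alternatives were other scalings, thresholds, pseudocounts and gene sets, thinning, and each column left out in turn; F11 and F12 as 1 and means for medians were added after the data were seen. For 1 member, values of its own are not reported here.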

Additional observations from a re-analysis of the deposited data

Results flagged for a closer look

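The share of complex II in F6, 0.190% of exonic counts, stood apart from the other 7 F columns, which ranged from 0 to 0.083%. Sdhc made up 66.5% of it. The share of complex V in BRP569, 1.47%, stood apart from the other 7 columns of the higher BRP run, where it was 1.05% to 1.21%. Both were found by the gap of the most extreme column to its neighbour (Dixon's criterion), which chance alone meets in about 1 in 20 groups.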

How the results depend on the processing

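Member counts over TMM effective library sizes, which are not shares, had a median of 4.54% in the F run. The median was 2.20% in the higher and 3.25% in the lower BRP run. With DESeq2 size factors it was 13.6% in the F run and 2.81% in the higher BRP run. In the higher against the lower BRP run, 22 members were lower with DESeq2 size factors. The members higher there numbered 1 at a threshold of 50 CPM, 1 with TMM, 0 with DESeq2 size factors and 1 with means in place of medians, which is an alternative added after the data were seen. With means, 44 members were lower and 3 higher in the F run than in the lower BRP run, and 35 lower and 6 higher than in the higher BRP run. Members higher in the F run numbered 1 (TMM) and 5 (DESeq2) against the lower and 9 (DESeq2) against the higher BRP run. No share over all genes was computed under these alternatives, so the counts stand without a background. The cause was not tested.

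With each column left out in turn, the median share was 3.56% to 3.65% over all columns, 4.27% to 4.501% in the lower BRP run, 3.13% to 3.33% in the higher BRP run and 1.94% to 1.98% in the F run. Members lower in the higher BRP run numbered 12 to 15 and those higher 2 to 4. Those lower in the F run numbered 66 to 69 and 60 to 68, and those higher 0 to 0 in both. Of the values computed under these and the other alternatives, 321 stayed within the limit set for them, and 21 did not. The limit was the spread between columns for shares and 1.5 times the count for counts. For median log2 ratios it was only the same sign, so these could move far and still be counted as kept. No paired analysis was possible because no column was matched to a sample and no test was made. In the shallowest column 0 counts allow up to 3.58 CPM, so members at 0 in F columns are not shown to be absent.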

Other observations

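Pvalb, the marker of fast-spiking interneurons, was looked at beside Cox6a2 after the levels of Cox6a2 had been seen. Pvalb stood at 213 CPM in F1 and 279 CPM in BRP528, which held 429 and 72.7 CPM of Cox6a2. It stood at 0.0475 CPM in BRP534 and 0 in BRP536, which held 204 and 45.2 CPM of Cox6a2, and at 182 CPM in BRP568, where Cox6a2 was at 0. High levels of both genes thus met in 2 columns and were apart in 3 others.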
